A study of Mus musculus with 8 samples.

Results

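Macrophages and other myeloid cells make up a small part of a healthy muscle, and 36 genes that mark them or carry out their work were followed here in mouse gastrocnemius, the large calf muscle. They were taken as a fixed list of symbols for the pan-macrophage identity, for Fc and scavenger receptors, for phagocyte effectors and for 3 macrophage classes, and each was matched to its Ensembl identifier in the deposited table. All 36 matched among 23008 mouse genes, and all 36 had a mean of at least 10 normalised reads, the level above which genes were tested. The classes were resident (Lyve1, Folr2, Timd4, Cd163 and Mrc1), recruited (Ccr2 and Cx3cr1) and lipid-associated (Trem2 and Gpnmb).

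The 8 samples came from the gastrocnemius of C57BL/6J mice with a wild-type genome. Each of them was injected through the tail vein with AAV9, a viral vector that transduces skeletal and heart muscle well; it carried GNDM, an epigenome editing construct for gene activation. In 4 samples the guide RNA was m31, which targets Lama1, and in the other 4 it was a control guide without a target, so an uninjected muscle is not among the groups. Age at injection is given as 7 weeks in one label and as 7 to 12 weeks in another, and tissue was taken 11 weeks later. The labels give neither the dose nor the promoter of the editor. Whether each library came from its own animal is not stated in the labels, and p-values then cover the library-to-library spread alone, part of which may be technical. The question addressed is whether myeloid transcripts in muscle differ with the Lama1-activating guide when virus and editor are present in both groups.

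Tissue macrophages arise from embryonic precursors or from blood monocytes and depend on the receptor Csf1r for survival. Resident macrophages of muscle take up debris and haemoglobin through receptors such as Mrc1 and Cd163, monocytes enter injured muscle by way of Ccr2, and macrophages loaded with lipid or cell debris switch on Trem2 and Gpnmb. Whole muscle was sequenced, so fewer cells of a type and less RNA per cell cannot be told apart in any value below.

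Libraries held 25157486 to 39210248 reads in genes, of which the 36 genes took 14977 to 37010 reads, or 0.0479 to 0.0979%. Maf, which other cell types also express, held 8805 of the 14977 reads in control replicate 4 and 7515 of the 37010 in m31 replicate 4. The share of the 36 genes is therefore not a share of myeloid RNA alone. Lama1 stood at 86.5 to 295 normalised reads under m31 and at 0 to 4.18 under the control guide, so it followed the labels in all 8 libraries. Among the m31 libraries it was lowest in replicate 4, at 86.5, and had 209, 295 and 273 in replicates 1 to 3. The labelled tissue was borne out by muscle fibre genes, whose 7 markers summed to 3608921 to 4935996 normalised reads. m31 replicate 4 and control replicate 3 stood apart from the other 6 libraries in myeloid genes. m31 replicate 4 was the highest of the 8 libraries for 33 of the 36 genes (16.5% of all 15960 genes tested), and control replicate 3 was the highest control library for 33 (31.8% of all). These libraries held the top 2 places for 30 of the 36 genes, against 8.82% of all genes tested. Results are therefore given with and without them.

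No myeloid gene passed the test between guides. With limma on log2(normalised reads + 1) and Benjamini-Hochberg adjustment, 0 of 36 had an adjusted p under 0.05, beside 1 of all 15960 genes tested (0.00627%); the smallest adjusted p was 0.698, for Fcgr1. edgeR's quasi-likelihood test and DESeq2 on the recovered whole reads also called 0 of 36, where they called 0.00627% and 0.259% of all genes. At an unadjusted p under 0.05, limma had 3 genes higher with m31 (Fcgr1, Folr2 and Tyrobp; 3.76% of all genes) and 0 lower (3.03% of all genes). At that level edgeR had 2 higher and 1 lower (Maf), with 7.11% of all genes in either direction, and DESeq2 had 6 higher and 1 lower (Maf), with 7.09%. The groups overlapped for all 36 genes, while they did not overlap for 3.85% of all genes. The estimates nonetheless lay mostly on one side: 34 of 36 were above 0, against 51.3% of all genes, and their median was 0.49 on the log2 scale against 0.01 over all genes. The 36 genes were measured in the same 8 libraries, so these are not 36 independent observations.

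**Figure D1:**
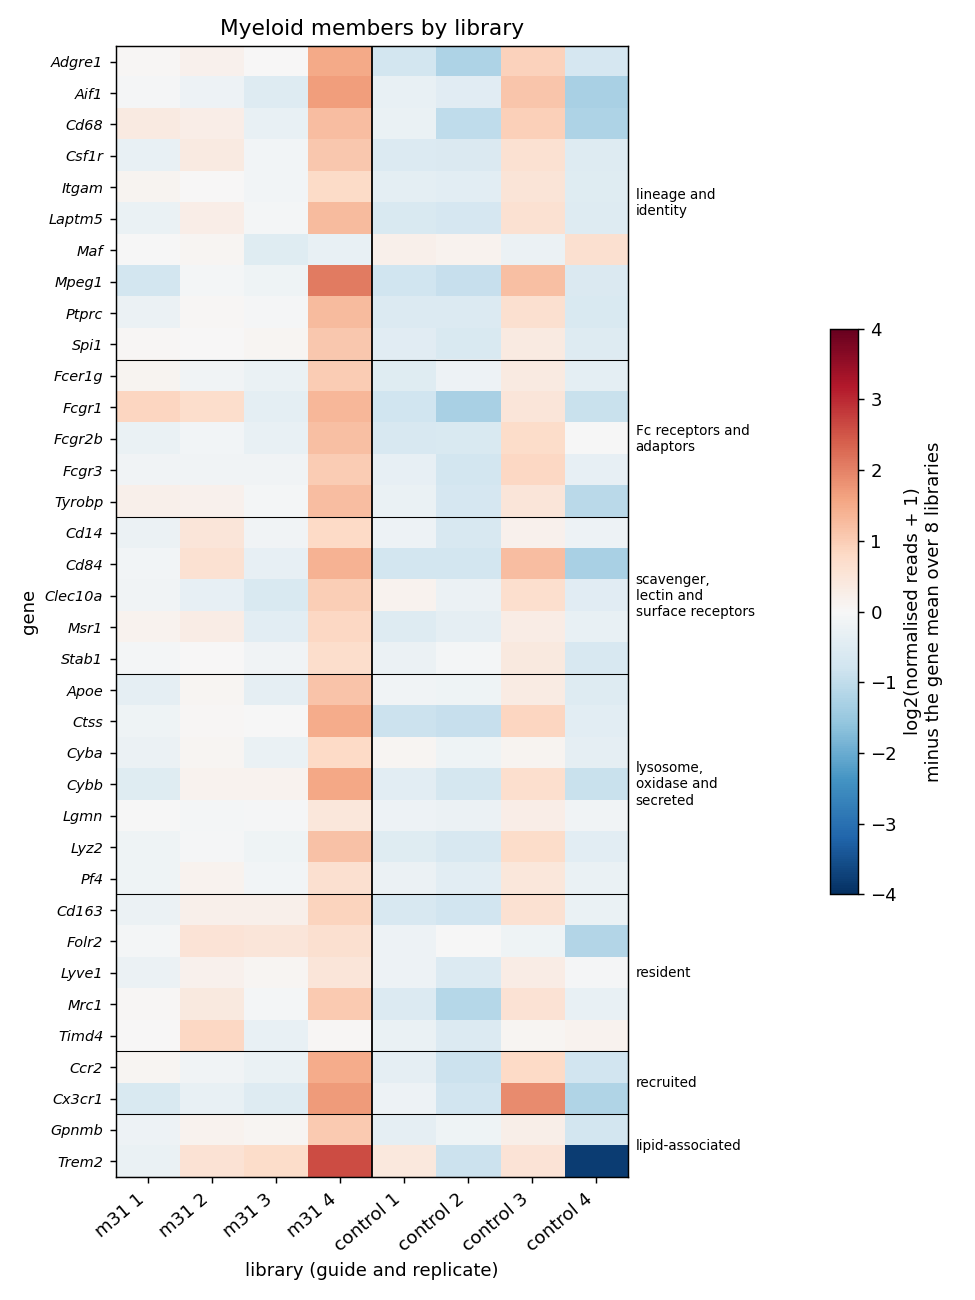
Each row is 1 of the 36 genes, grouped by role, and each column 1 of the 8 libraries; colour gives log2(normalised reads + 1) minus the gene's mean over the libraries. m31 4 and control 3 are red in most rows, Maf runs the other way, and the deepest blue is Trem2 in control 4, where it had 0 reads.

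The plot of all members by library shows this layout. Averaged over the 36 genes after centring each on its mean, m31 replicates 1 to 4 stood at -0.11, 0.15, -0.14 and 1.09, and control replicates 1 to 4 at -0.36, -0.58, 0.57 and -0.63 (log2). The guide groups overlapped only through control replicate 3, which lay above 3 of the 4 m31 libraries; the other control libraries lay below all 4. Without m31 replicate 4, 28 of 36 estimates were above 0 (50.7% of all genes), the median was 0.21, and 0 genes had an unadjusted p under 0.05 on the higher side (3.2% of all genes). Without control replicate 3, 19 genes were higher at an unadjusted p under 0.05 (6.32% of all genes), and the groups did not overlap on the higher side for 17 (5.48% of all). With both libraries left out, 33 of 35 estimates were above 0 (50.1% of all genes) with a median of 0.44. In that comparison of 3 against 3, 16 genes were higher at an unadjusted p under 0.05 (6.18% of all genes) and 1, Maf, was lower (4.76%). The groups then did not overlap for 17 genes on the higher side (8.5% of all) and for Maf on the lower side (8.7%). The 2 libraries were singled out because they were highest for these same genes, so leaving them out narrows the spread of these genes by construction, and the counts without them are descriptions from which nothing is read. Without m31 replicate 4, 30 of 36 estimates moved by over 1.5 times or turned sign; without control replicate 3, 23 of 36 did. None of these fits called a myeloid gene: the smallest limma adjusted p was 0.160, for Adgre1 with both libraries left out.

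Among the genes of lineage and identity, 9 of 10 had positive estimates and none passed. Spi1 encodes PU.1, the transcription factor that sets the myeloid lineage. It had 78.8, 78.2, 81.0 and 165 normalised reads in m31 replicates 1 to 4 and 56.1, 50.6, 98.9 and 53.3 in control replicates 1 to 4. All 4 m31 libraries were above control replicates 1, 2 and 4, and 3 of them were below control replicate 3. The log2 difference was 0.61 ± 0.29 (SE, limma adjusted p = 0.736), and 0.57 ± 0.16 without the 2 libraries that stood apart. The smaller error follows from the choice of those libraries, which were highest for these same genes, so nothing is read from it.

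Adgre1, which encodes the macrophage marker F4/80, had 131, 141, 127 and 361 with m31 and 75.3, 53.4, 239 and 78.6 with the control guide. Its difference was 0.86 ± 0.45 (adjusted p = 0.772), 0.51 without m31 replicate 4 and 1.31 without control replicate 3. m31 replicate 4 and control replicate 3 were likewise highest for Csf1r, the growth factor receptor of the lineage, at 523, 832, 597 and 1381 against 444, 437, 986 and 448. Its difference was 0.52 ± 0.32 (limma adjusted p = 0.810), 0.24 without m31 replicate 4 and 0.80 without control replicate 3. In both genes the 3 lower control libraries lay close together and below every m31 library. Part of the Csf1r exons, 15.1% of their bases, is also exon of Hmgxb3 on the other strand, and the strand setting of the counting is not given, so some reads may belong to Hmgxb3.

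The pan-leukocyte phosphatase gene Ptprc (CD45) had 117, 142, 133 and 328 normalised reads with m31 and 93.7, 92.5, 211 and 89.3 with the control guide. Laptm5, a lysosomal membrane gene of blood cells, spanned 312 to 1193, and Cd68, a lysosomal glycoprotein gene of macrophages, 45.3 to 259.6. Their differences were 0.53 ± 0.35, 0.59 ± 0.35 and 0.79 ± 0.45, smaller than or near 2 standard errors. Mpeg1, which encodes the pore-forming perforin-2 of macrophages, was the most uneven of these, with 98.8, 156, 145 and 698 against 95.4, 86.8, 378 and 111. For Mpeg1 m31 replicate 4 lay far above the other m31 libraries, and the difference of 0.54 ± 0.60 became -0.06 ± 0.44 without that library. Aif1 (Iba1), at 5.33 to 48.9, and the integrin gene Itgam (CD11b), at 25.3 to 61.7, had differences of 0.47 ± 0.57 and 0.39 ± 0.28; Aif1 rested on 4 to 61 reads per library. Itgam shares 68.7% of its exonic bases with the model Gm49368 on the same strand, which held at most 1.12 normalised reads. How reads in the shared bases were counted is not given, so the Itgam value is uncertain.

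Maf was the member that ran against the rest. It encodes c-Maf, a transcription factor of resident macrophages that other cell types also express. Its levels were 7382, 7794, 5276 and 6021 with m31 and 8619, 8132, 6355 and 11733 with the control guide. The log2 difference was -0.38 ± 0.18 (adjusted p = 0.736). Maf was not raised in m31 replicate 4 or control replicate 3, the libraries highest for the other lineage genes. It also had more reads per kilobase of exon than any other lineage gene, 930.0 against 146 for Laptm5, the next.

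All 5 genes of Fc receptors and their adaptors had positive estimates. Fcgr1, the high-affinity receptor for IgG, had 33.2, 29.7, 13.7 and 46.5 normalised reads with m31 and 10.04, 6.68, 25.8 and 9.33 with the control guide. The groups overlapped because m31 replicate 3 lay below control replicate 3. The difference was 1.24 ± 0.45 (adjusted p = 0.698), from 7 to 58 reads per library. Tyrobp, which encodes the signalling adaptor DAP12 used by Trem2, had 89.3, 88.1, 73.7 and 184 against 63.6, 48.6, 108 and 35.98. Its difference was 0.78 ± 0.35 (adjusted p = 0.733), and control replicate 3 again was the control library that reached the m31 range. Fcer1g, the common gamma chain of activating Fc receptors, had 101, 84.5, 78.3 and 189.9 against 67.0, 82.0, 120.3 and 70.6, a difference of 0.36 ± 0.28.

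The activating receptor Fcgr3 and the inhibitory receptor Fcgr2b had smaller differences, 0.29 ± 0.35 and 0.27 ± 0.38. Fcgr3 stood at 91.2, 89.8, 90.1 and 202 with m31 and at 79.5, 59.1, 176 and 80.0 with the control guide, and without m31 replicate 4 its estimate was 0.00. Fcgr2b stood at 123, 139, 123 and 350.2 with m31 and at 95.4, 98.3, 251 and 148 with the control guide, and without m31 replicate 4 its estimate was -0.09. Both lie on the minus strand of chromosome 1 (GRCm38; Fcgr2b at 170958617 to 170976547, Fcgr3 at 171051174 to 171064935) and have coding sequences that are partly the same. Of all 50-base windows in their annotated transcripts, 9.58% of those of Fcgr3 and 4.22% of those of Fcgr2b occur in the transcripts of another gene. Reads from such windows could not be assigned with certainty. The longest identical stretch, 129 bases from base 278 to 406 of the Fcgr2b coding sequence, is shown because it is where the 2 receptors cannot be separated by short reads.
Fcgr2b and Fcgr3, shared coding stretch: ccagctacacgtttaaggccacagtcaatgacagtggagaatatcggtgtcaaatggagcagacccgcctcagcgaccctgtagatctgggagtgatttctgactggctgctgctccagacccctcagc

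Of the 5 scavenger, lectin and surface receptor genes, 4 had positive estimates and 1 a negative one. Cd84, a receptor of the SLAM family on leukocytes, had 28.5, 47.6, 24.6 and 83.3 normalised reads with m31 and 18.4, 18.1, 74.2 and 12.0 with the control guide, a difference of 0.77 ± 0.53. The lipopolysaccharide co-receptor Cd14 (39.1 to 109) and the scavenger receptor Msr1 (14.6 to 36.1 with m31, 13.4 to 24.7 with the control guide) differed by 0.45 ± 0.26 and 0.43 ± 0.31. Stab1, a scavenger receptor also made by endothelium, spanned 896 to 1595 under m31 and 628 to 1296 under the control guide, with a difference of 0.27 ± 0.23. Clec10a, a galactose-binding lectin of macrophages and dendritic cells, had 104, 91.6, 75.6 and 230.0 against 127, 98.3, 185 and 85.3, a difference of -0.06 ± 0.34. Clec10a shares 9.02% of its 50-base windows with other genes, mainly its neighbour Mgl2, which had 92.5 to 256 normalised reads, so part of its count is uncertain.

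Phagocyte effectors and secreted products all had positive estimates (7 of 7), with a median of 0.25. Ctss, the lysosomal protease cathepsin S, had 185, 212, 206 and 578 normalised reads with m31 and 115, 109, 376 and 156 with the control guide, a difference of 0.66 ± 0.43. Cybb, the catalytic subunit of the phagocyte oxidase, had 80.7, 124, 123 and 331 against 83.7, 67.7, 179 and 60.0, a difference of 0.68 ± 0.43. Its membrane partner Cyba, which many cell types express, had 171, 213, 167 and 347 against 211, 178, 218 and 156, a difference of 0.18 ± 0.22. The oxidase subunits thus had estimates of unequal size, and their difference from each other was not tested.

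Lyz2, the lysozyme of macrophages, had 1320.0, 1442, 1331 and 3312 with m31 and 1051, 959.6, 2485 and 1117 with the control guide, a difference of 0.40 ± 0.34. It was 0.08 without m31 replicate 4 and 0.71 without control replicate 3. Its copy Lyz1, which accounts for nearly all of the 15.4% of Lyz2 windows found in another gene, had 85.3 to 310.2. Apoe, the lipid carrier, reached 7119 in m31 replicate 4. It lay between 2492 and 3387 in m31 replicates 1 to 3 and between 2239 and 4069 under the control guide. Its difference of 0.25 ± 0.30 became -0.09 ± 0.18 without m31 replicate 4. The protease legumain (Lgmn) varied least, 1.63-fold over the 8 libraries, from 862 to 1405, with a difference of 0.16 ± 0.15. The platelet and macrophage chemokine gene Pf4 ranged from 102 to 214, with a difference of 0.24 ± 0.22.

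Resident, recruited and lipid-associated genes did not share a single pattern. The plot of the 3 classes gives their levels in every library.

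**Figure D2:**
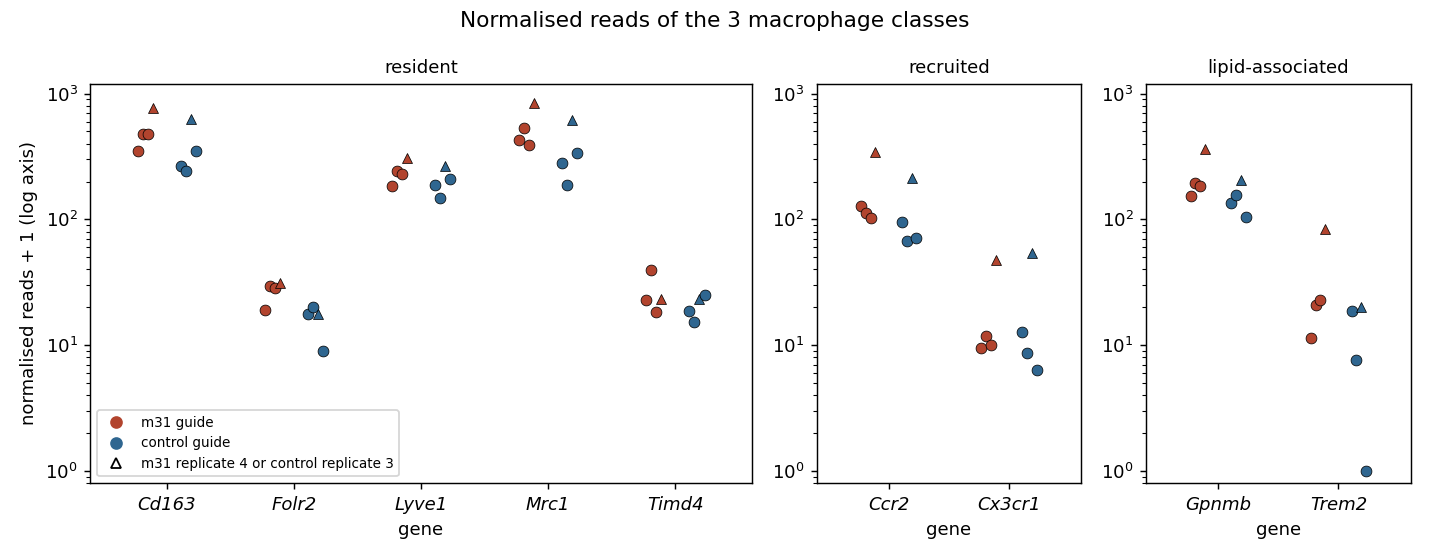
Normalised reads plus 1 (log axis) of the resident, recruited and lipid-associated genes, 1 point per library, red for m31 and blue for the control guide; triangles are m31 replicate 4 and control replicate 3. The triangles lie well above the circles for Ccr2 and Cx3cr1, but among or near the circles for Folr2 and Timd4, and Trem2 has a control point at 0 reads.

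All 5 resident genes had positive estimates with a median of 0.52, and none passed. That median was 0.33 without m31 replicate 4 and 0.81 without control replicate 3. Mrc1, the mannose receptor CD206, had 428, 536, 391 and 849 normalised reads with m31 and 280.4, 187, 614 and 336 with the control guide. Every m31 library was above control replicates 1, 2 and 4; the difference was 0.70 ± 0.33 (adjusted p = 0.737), and 0.47 without m31 replicate 4. Cd163, the scavenger receptor for haemoglobin bound to haptoglobin, had 351, 475, 476 and 768 against 267, 242, 633 and 348. Its difference was 0.52 ± 0.30 (limma adjusted p = 0.785), 0.31 without m31 replicate 4 and 0.81 without control replicate 3. Lyve1, a hyaluronan receptor of perivascular macrophages and of lymphatic vessels, ranged 2.07-fold over the libraries. It too was highest in m31 replicate 4, followed by control replicate 3. It had 184, 242, 228 and 304 against 187, 147, 263 and 209, a difference of 0.26 ± 0.19.

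Folr2 and Timd4, the remaining resident genes, did not follow the 2 libraries that stood apart. Folr2, the macrophage folate receptor, had 18.04, 28.8, 27.3 and 30.4 normalised reads with m31 and 16.7, 19.1, 16.9 and 7.995 with the control guide. m31 replicates 2 to 4 were above every control library and replicate 1 was not, and control replicate 3 lay between control replicates 1 and 2. The difference was 0.79 ± 0.31 (adjusted p = 0.720), from 6 to 38 reads per library. Exons of Gm10602 on the other strand cover 63.1% of the Folr2 exonic bases, and Gm10602 held 11.8 to 22.7 normalised reads, about as many as Folr2, so the Folr2 value is uncertain. Timd4, a phosphatidylserine receptor for dying cells, had 21.8, 38.6, 17.3 and 22.4 against 17.6, 14.3, 22.5 and 23.99, a difference of 0.30 ± 0.29. Timd4 was highest in m31 replicate 2 and was the only resident gene not highest in m31 replicate 4.

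Recruited cells are read from Ccr2, the receptor for the monocyte chemokine Ccl2, and Cx3cr1, the fractalkine receptor. Ccr2 had 127, 111, 101 and 344 normalised reads with m31 and 93.7, 66.8, 214 and 70.6 with the control guide, a difference of 0.59 ± 0.43 (adjusted p = 0.838). The Ccr2 difference was 0.19 ± 0.35 without m31 replicate 4 and 0.96 ± 0.38 without control replicate 3. Cx3cr1 had 8.55, 10.8, 9.10 and 46.5 against 11.7, 7.63, 52.8 and 5.33, a difference of 0.13 ± 0.69 (adjusted p = 0.978). Cx3cr1 ranged 9.91-fold over the libraries, the widest range of the 35 genes with reads in every library, and its top 2 values came 1 from each guide. Of the 36 genes, Cx3cr1 alone was highest in control replicate 3. Its sign turned without m31 replicate 4 (-0.41 ± 0.63) and also without control replicate 2 or 4 (-0.10 and -0.25). The median of this pair of genes was 0.36, with -0.11 without m31 replicate 4 and 0.87 without control replicate 3.

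The lipid-associated genes were Trem2, a receptor for lipids and apolipoproteins that signals through Tyrobp, and Gpnmb, a transmembrane glycoprotein of lysosome-rich macrophages. Trem2 had 10.4, 19.8, 21.8 and 82.5 normalised reads with m31 and 17.6, 6.68, 19.1 and 0 with the control guide. Control replicate 4 held 0 Trem2 reads, which allows up to 3.998 normalised reads (3 reads), and m31 replicate 4 held 103. The log2 difference of 1.83 ± 0.91 was the largest of the 36 (adjusted p = 0.764). It rested on the ends of both groups: leaving out 1 library at a time gave 0.87 to 2.31, the lowest without control replicate 4. With a pseudocount of 5 in place of 1 it was 1.21, since the log2 value of a library at 0 depends on what is added.

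Gpnmb had 152, 193, 185 and 361 normalised reads with m31 and 135, 155, 205 and 104 with the control guide. Its difference was 0.53 ± 0.27 (limma adjusted p = 0.765), and 0.27 without m31 replicate 4. The groups overlapped because m31 replicate 1 was below control replicates 2 and 3, and m31 replicates 2 and 3 were below control replicate 3. Trem2 per 100 Gpnmb reads was 6.88, 10.2, 11.8 and 22.8 with m31 and 13.04, 4.32, 9.34 and 0 with the control guide. The ratio was highest in m31 replicate 4 and lowest in control replicate 4, with the other 6 libraries mixed between guides.

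Setting each class gene against Csf1r asks whether the makeup of the macrophage signal differed, apart from its size. Per 100 Csf1r reads, the m31 and control ranges overlapped for all 9 class genes. Lyve1 per 100 Csf1r was 35.2, 29.0, 38.1 and 22.1 with m31 and 42.3, 33.6, 26.7 and 46.7 with the control guide. Timd4 was 4.17, 4.64, 2.90 and 1.63 against 3.96, 3.28, 2.28 and 5.36. Relative to Csf1r, both were lowest within their guide group in the 2 libraries with the most Csf1r. So was Folr2, at 2.21 in m31 replicate 4 and 1.71 in control replicate 3. Cx3cr1 per 100 Csf1r was 1.63, 1.30, 1.52 and 3.37 against 2.64, 1.75, 5.36 and 1.19, and was highest in those same libraries. Cd163 (55.6 to 79.7 with m31, 55.5 to 77.7 with the control guide) and Gpnmb (23.2 to 30.9, and 20.8 to 35.4) kept a more even proportion. These ratios share Csf1r as their divisor and are given as descriptions.

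**Figure D3:**
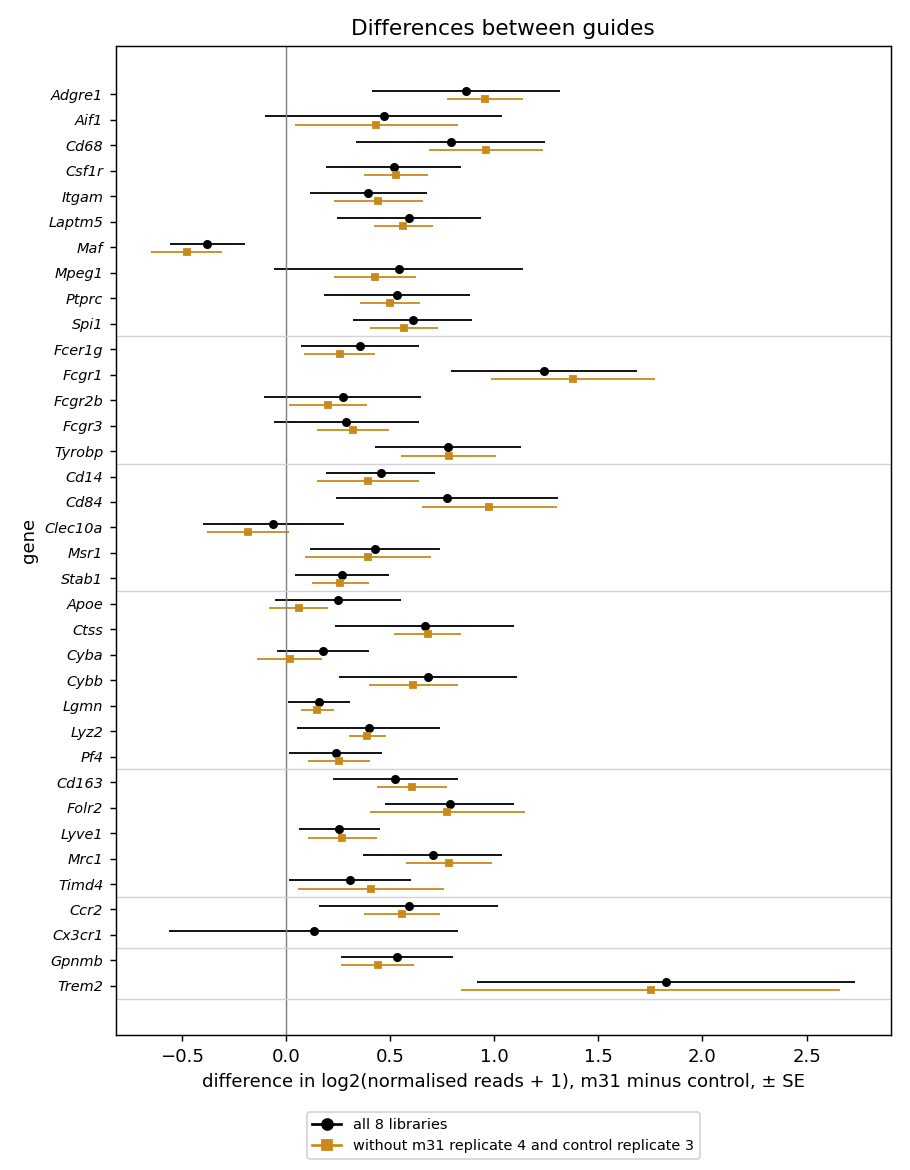
Difference in log2(normalised reads + 1), m31 minus control, ± SE for the 36 genes in order of role; black circles use all 8 libraries and ochre squares the 6 left without m31 replicate 4 and control replicate 3. Most estimates lie right of 0 in both, with narrower errors for most squares; Maf and Clec10a lie left of 0 in both, Trem2 has the widest error, and Cx3cr1 has no square because its mean fell under 10.

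As the plot of differences shows, 3 of 35 estimates moved by over 1.5 times when both libraries were left out. Standard errors were smaller for 32 of 35 genes, which the choice of those libraries as the highest for these genes fixed in advance. Adgre1 went from 0.86 ± 0.45 to 0.95 ± 0.18, Ctss from 0.66 ± 0.43 to 0.68 ± 0.16 and Mrc1 from 0.70 ± 0.33 to 0.78 ± 0.21. The limma adjusted p-values of these 3 genes were then 0.160, 0.208 and 0.246, all above 0.05. For Apoe and Cyba the estimates came nearer to 0, at 0.06 and 0.02.

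The start regions of 4 class genes are shown to let the sequences behind the classes be compared: Mrc1, Ccr2 and Gpnmb as the class members with the most reads, and Trem2 for its large estimate. Each runs from 250 bases before to 50 after the RefSeq start, 5′ to 3′ along the gene, on GRCm38.p6, and all 4 genes lie on the plus strand. Capitals mark the core of the PU.1 site (GAGGAA, or TTCCTC on the other strand) and an E-box (CATGTG, or CACATG on the other strand); a second E-box known for binding MITF and TFE factors, CACGTG, was also searched and is in none of the 4.
Mrc1, chr2:14229164-14229463: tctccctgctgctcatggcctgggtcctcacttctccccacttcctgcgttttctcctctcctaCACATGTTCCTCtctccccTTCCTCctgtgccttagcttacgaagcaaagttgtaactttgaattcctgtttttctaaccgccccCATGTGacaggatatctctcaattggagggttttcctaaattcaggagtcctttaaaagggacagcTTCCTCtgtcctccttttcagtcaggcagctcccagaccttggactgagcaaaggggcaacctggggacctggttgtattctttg
Ccr2, chr9:124101933-124102232: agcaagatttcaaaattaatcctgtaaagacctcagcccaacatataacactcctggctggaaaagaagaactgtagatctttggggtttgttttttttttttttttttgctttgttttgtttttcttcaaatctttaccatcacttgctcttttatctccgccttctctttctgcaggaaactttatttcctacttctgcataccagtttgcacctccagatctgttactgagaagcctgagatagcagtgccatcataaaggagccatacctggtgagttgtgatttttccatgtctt
Trem2, chr17:48346151-48346450: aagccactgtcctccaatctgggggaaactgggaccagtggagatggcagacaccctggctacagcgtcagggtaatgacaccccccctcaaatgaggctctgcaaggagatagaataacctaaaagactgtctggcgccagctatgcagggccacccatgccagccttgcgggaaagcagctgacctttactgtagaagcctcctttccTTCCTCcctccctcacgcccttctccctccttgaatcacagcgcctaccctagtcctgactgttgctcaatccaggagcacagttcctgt
Gpnmb, chr6:49036268-49036567: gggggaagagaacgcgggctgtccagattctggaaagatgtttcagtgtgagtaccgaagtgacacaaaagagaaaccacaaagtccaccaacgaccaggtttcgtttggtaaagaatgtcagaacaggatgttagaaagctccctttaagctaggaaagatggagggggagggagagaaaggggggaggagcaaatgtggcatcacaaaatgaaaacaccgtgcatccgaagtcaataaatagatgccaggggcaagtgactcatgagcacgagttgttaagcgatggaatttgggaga

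Mrc1 has 3 PU.1 cores and 2 CATGTG E-boxes in this window, Trem2 has 1 PU.1 core, and Ccr2 and Gpnmb have neither. The Ccr2 window starts at 124101933, while the GENCODE annotation starts the gene at 124101950. By that annotation nearly all of this window lies within the gene, so it is not a like region to compare. RefSeq start regions were found for 27 of the 36 genes, 33 windows in all. The PU.1 core was present in 51.5% of these windows and in 28.3% of all 32851 windows of that length. The CATGTG E-box was present in 21.2% and 14.2%, and CACGTG in 3.03% and 7.15%. Windows of the same gene can overlap, as those of Fcgr3 do, so the same site can be counted again. By gene, 15 of the 27 had the PU.1 core, and the share by gene over all genes was not counted. A match is a description of letters, not of binding.

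Per kilobase of exon in the GENCODE annotation, the members spanned a wide range of levels. Over all 8 libraries Apoe had 1611 normalised reads per kilobase, Lyz2 1236, Maf 930.0 and Lgmn 446. Csf1r had 122, Cd163 81.5, Lyve1 75.6 and Mrc1 71.1, which lie closer to each other than the spread between libraries. The other resident genes were lower, Folr2 at 13.4 and Timd4 at 10.3, so the resident class spanned the levels of Gpnmb (28.6) and Ccr2 (20.8). Trem2 had 4.50, Cx3cr1 4.23 and Msr1, the lowest of the 36, 3.27. Exon length here joins all annotated transcripts of a gene, which lowers the value where rare long forms are annotated.

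Partners of these genes in the same pathways were taken from fixed lists, and none of their tested genes passed. Among growth factors and receptors of the lineage, 4 of 4 tested genes had positive estimates (median 0.30), led by the cytokine receptor chain Csf2rb (0.53 ± 0.22); the Csf1r ligand Csf1 had 0.25 ± 0.16. The 3 C1q chains, complement proteins made by macrophages, had 0.32 to 0.42. Of 7 tested genes of Fc and DAP12 signalling, 6 had positive estimates (median 0.45), with the exchange factor Vav1 at 0.77 ± 0.34. The 4 cytosolic oxidase partners had 0.12 to 0.25. Of 5 tested chemokines that recruit monocytes, 4 had positive estimates (median 0.44), with the fractalkine gene Cx3cl1 at 0.47 ± 0.29.

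Genes that extend the resident and lipid-associated classes stayed nearer to the level of all genes. The 6 tested further resident genes had 4 positive estimates and a median of 0.05, with the reductase gene Cbr2 at 0.26 ± 0.13. The 10 further lipid-associated genes had 6 positive and 4 negative estimates with a median of 0.07; the galectin gene Lgals3 had 0.38 ± 0.34 and the lipoprotein lipase gene Lpl -0.33 ± 0.18. Several of the latter, Lpl and the cathepsins among them, are also expressed by muscle fibres and other cells. The median over all genes tested was 0.01.

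Markers of other cell types moved with the same libraries to different degrees, and their part in the results was not tested. Monocyte markers (6 of 7 analysed) summed to 577 to 1083 normalised reads under m31 and 378 to 727 under the control guide, most of it F13a1, which resident macrophages also express. Neutrophil markers (8 of 13 analysed) summed to 87.4 to 194 and 41.0 to 189. Much of each sum was Mmp9, with 143 in m31 replicate 4 and 145 in control replicate 3, the highest libraries of their groups. S100a8 and S100a9 stayed at or below 18.7 in every library, and S100a9 was at 0 in m31 replicate 4. Retnlg of the same list went the other way and was highest in m31 replicate 4, at 15.2 from 19 reads. It had 0.95, 2.70 and 5.46 in m31 replicates 1 to 3 and 0 to 0.84 under the control guide, too few reads to be tested. The 11 T and NK cell markers reached a sum of 147 in m31 replicate 4; the sum lay between 48.4 and 55.7 in m31 replicates 1 to 3 and between 32.0 and 70.8 under the control guide, with Klrb1c at 0 in 5 libraries. The 9 dendritic cell markers summed to 365 to 524 and 349.9 to 542, of which Zbtb46 alone gave 234 to 326 over the 8 libraries. Mast cell markers, at 189 to 445.5 and 236 to 345, had 2 positive and 2 negative estimates among 4 tested genes.

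B and plasma cell markers summed to 41.8 to 115 and 51.9 to 130.4, and platelet markers (2 of 5 analysed) to 39.1 to 58.9 and 43.5 to 66.3. Lymphatic endothelium, another source of Lyve1, Mrc1 and Stab1, had 3 positive and 2 negative estimates among 5 genes (median 0.07) and summed to 662 to 1113 and 631 to 922. Fibro-adipogenic progenitor markers, from the connective tissue cells of muscle, summed to 14126 to 24028 under m31 and 12942 to 21646 under the control guide. Tendon markers summed to 11872 to 28612 and 7250.3 to 14546, with 6 of 6 estimates positive (median 0.64). Both sums were highest in m31 replicate 4, and control replicate 3 was the highest control library for both. Muscle fibre markers had negative estimates for 7 of 7 genes (median -0.08). One of them, the slow myosin gene Myh7, was the only companion gene tested whose groups did not overlap, at 2905 to 6188 under m31 and 6393 to 9786 under the control guide (-0.64 ± 0.23, limma adjusted p = 0.698).

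**Figure D4:**
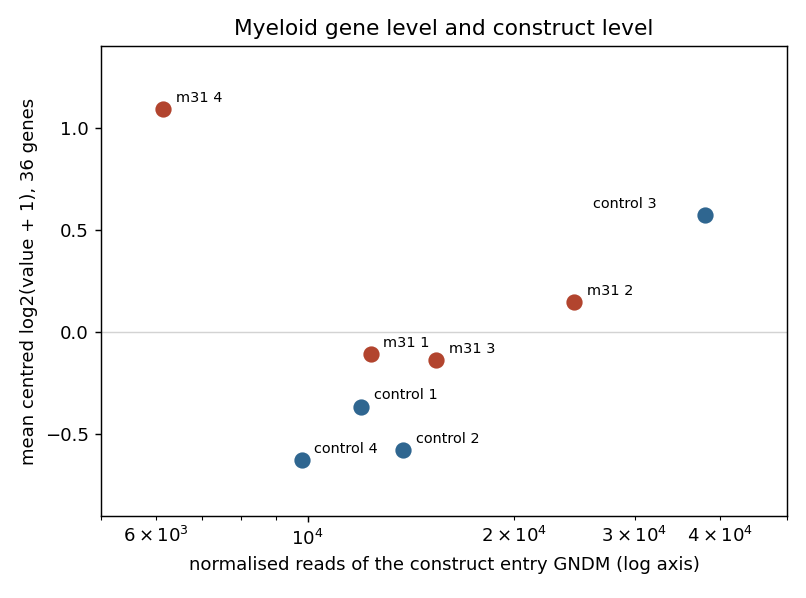
Each point is 1 library (red m31, blue control); the horizontal axis gives normalised reads of the construct entry GNDM on a log axis, and the vertical axis the mean centred log2 level of the 36 genes. m31 4 has the lowest GNDM level and the highest myeloid level, while control 3 has the highest GNDM level and the second highest myeloid level.

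GNDM had 12365, 24487, 15418 and 6157 normalised reads in m31 replicates 1 to 4 and 11969, 13775, 37989 and 9802 in control replicates 1 to 4. The 2 libraries highest in myeloid genes lay at opposite ends of this range, as the plot of myeloid and construct level shows. In the other libraries the levels did not rise together throughout: control replicate 2 had more GNDM than m31 replicate 1 and a lower myeloid level (-0.58 against -0.11). No relation was tested. With the log2 GNDM level as a covariate, the median of the 36 estimates was 0.51 (0.003 over all genes). In that fit 34 of 36 were above 0 (50.7% of all genes), and limma again called 0 of the 36.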

How the data were processed

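The 8 gene expression libraries were read from 1 deposited table. Of its 11 value columns, 8 carry a library name that GEO gives for these samples and 3 do not, and those 3 were not used. The unit is a size-factor-normalised read signal, which the authors made by dividing gene counts by a factor for each library; STAR and DESeq2 are the tools listed in the submitters' processing notes. Those notes name the human build GRCh38.p12, whereas the identifiers are mouse Ensembl identifiers; for counter, strand setting and annotation the sources used here give nothing. All values (100%) were whole multiples of 1 read within 0.01 of a read, so whole reads were recovered. The 5 construct entries stayed out of gene tests and totals.

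On the scale log2(value + 1), group differences were fitted by limma 3.58.1 (R 4.3.3; intensity trend, group as the only term, all 8 libraries) for genes with a mean of at least 10, adjusted by Benjamini-Hochberg over all genes tested, with a threshold of 0.05. edgeR 4.0.16 and DESeq2 1.42.0 were run on the recovered reads as alternatives. The limma fit was tested on simulated data. Depth sets the counting error of low genes, and the upper limit for a gene at 0 is set at 3 reads; such limits cover counting error only. Standard errors of log2 differences had a median of 0.33 for members and 0.15 for all genes. Positions, exon lengths, overlaps and shared 50-base windows come from GENCODE M21 (GRCm38), start regions from RefSeq. The last 30 bases of 31 of 33 start regions occurred in an annotated transcript of that gene.

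Every member was named with its values. Of each companion list at most the 3 genes with the smallest unadjusted p were named. S100a8, S100a9, Retnlg, Klrb1c, Zbtb46, Ccl8 and Cxcl12 were added with their values in view. Members and lists were chosen with earlier results of these data known. Alternatives were each library left out, m31 replicate 4 with control replicate 3, the replicate number as a block, other pseudocounts and minimums, quantile normalisation, recentring on library medians, library weights, the GNDM level as a covariate, edgeR and DESeq2. No pair of replicates agreed within sampling noise (chi-square per degree of freedom 12.97 to 52.2).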

Additional observations from a re-analysis of the deposited data

Results flagged for a closer look

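In 16 cases a library lay far from the other 3 of its guide group (by Dixon's criterion for a gap relative to the whole range, at 95% and on the log2 scale), a distance that chance gives in about 1 in 20 groups. Over all 15960 genes tested, 5.68% of m31 groups and 5.83% of control groups were set apart in this way, against 8 and 8 of the 36 members.

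m31 replicate 4 was the high library for 8 genes: Adgre1 at 361 normalised reads (others 127 to 141), Lyz2 at 3312 (1320.0 to 1442), Ctss at 578 (185 to 212), Spi1 at 165 (78.2 to 81.0), Fcgr3 at 202 (89.8 to 91.2), Fcgr2b at 350.2 (123 to 139), Cx3cr1 at 46.5 (8.55 to 10.8) and Lgmn at 1405 (969 to 1012). Control replicate 3 was the high library for 7: Csf1r at 986 (437 to 448), Lyz2 at 2485 (959.6 to 1117), Itgam at 51.7 (25.3 to 27.6), Laptm5 at 752 (312 to 349), Ptprc at 211 (89.3 to 93.7), Spi1 at 98.9 (50.6 to 56.1) and Mpeg1 at 378 (86.8 to 111). Control replicate 4 was low for Folr2, at 7.995 (16.7 to 19.1). Lyz2 and Spi1 were set apart in both groups.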

How the results depend on the processing

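No member was called under any of the 20 alternatives run, and the 4 medians over the members moved by less than the spread between replicates. That spread was 0.56 for the members and 1.01 for the recruited pair, more than their medians of 0.49 and 0.36. So wide a limit cannot show that the medians were stable, and the recruited median turned sign without m31 replicate 4. Under these alternatives 695 member estimates kept their sign and 15 did not. All genes called came to 3 with m31 replicate 4 and control replicate 3 both left out, 38 with DESeq2 and 1 to 2 when 1 library was left out. Members at an unadjusted p under 0.05, 3 in the comparison of all libraries, numbered 17 with both of those libraries left out (10.9% of all genes in either direction), 16 with library weights (13.8%), 7 with DESeq2 (7.09%), 6 with no minimum (6.35%) and 0 with a mean of at least 50 (7.13%; 27 members tested), beside 6.79% of all genes in the comparison of all libraries. Leaving out 1 library at a time gave 0 (without m31 replicate 4; 5.73%) to 20 (without control replicate 3; 11.9%). Members whose groups did not overlap numbered 18 with both libraries left out, beside 8.5% of all genes on the higher side and 8.7% on the lower side. With 1 library left out they numbered 0 to 18, the most without control replicate 3. Of those, 17 were on the higher side, beside 5.48% of all genes. Both libraries had been picked as highest for these same genes, so nothing is read from these counts. Signs turned for Cx3cr1 (-0.41 to 0.78 with 1 library left out, -0.038 by DESeq2, -0.014 by edgeR), Clec10a (-0.40 to 0.15; 0.019 by DESeq2, 0.017 by edgeR), Aif1 (-0.013 to 0.91), Cyba (-0.052 to 0.30), Fcgr2b (-0.090 to 0.56), Mpeg1 (-0.062 to 1.03) and Apoe (-0.094 to 0.41). The cause was not tested. Same-numbered libraries did not deviate together (r = -0.18 to 0.05), which cannot show whether they were handled in pairs. With the replicate block, limma called 0 members, and 3 had an unadjusted p under 0.05 (5.43% of all genes).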

Other observations

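The chemokine gene Ccl8, chosen once its values were known, reached 137 normalised reads in m31 replicate 4. It lay between 3.59 and 10.01 in m31 replicates 1 to 3 and between 5.02 and 24.7 under the control guide. Jchain, the joining chain of secreted antibodies, had 0.9496, 15.3, 16.4 and 73.7 in m31 replicates 1 to 4 and 5.86, 14.3, 56.2 and 10.7 in control replicates 1 to 4. Cxcl12, a chemokine of stromal cells, did not share this order: it had 2497 in m31 replicate 4, the lowest of the 8 libraries, and 3558 in control replicate 3, the highest. Ccr2 per 100 Mrc1 reads was 29.7, 20.6, 25.8 and 40.5 with m31 and 33.4, 35.7, 34.8 and 21.0 with the control guide, so that the groups overlapped.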
